A study of Mus musculus with 34 samples.

Results

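The calcium channels, stores and pumps of the mouse cortex were followed over 4 genotypes. The members were the genes whose symbols begin with Cacna, Cacnb, Cacng, Ryr, Atp2a or Atp2b, together with the IP3 receptors, the store sensors Stim1 and Stim2, and the Orai channels. By this rule 41 of 18193 measured genes were members. They comprised 9 pore subunits of voltage-gated calcium channels, 4 alpha2delta, 3 beta and 8 gamma subunits, 3 ryanodine receptors, 2 IP3 receptors, 2 store sensors, 3 Orai channels, 3 store pumps and 4 plasma membrane pumps. Itpr1 was among the genes of these families that were not analysed here.

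Cortex was taken at 15 weeks of age from mice of strain CBA X C57Bl/6, and the RNA of each mouse was hybridised to its own Affymetrix array. Dble::R6/2 mice carried both the R6/2 transgene and 1 targeted Hdac4 allele (n = 9), R6/2 mice the transgene alone (n = 9), Hdac4HET mice the Hdac4 allele alone (n = 8), and WT mice neither (n = 8). R6/2 mice express a mutant exon 1 fragment of human HTT, and model Huntington's disease through that fragment rather than through the full-length protein. The Hdac4 null allele was made on another mouse strain, so linked DNA of that strain may accompany it in both Hdac4HET and Dble::R6/2 mice. Since 1 array stood for 1 mouse, p-values measure the spread between animals, and the number of arrays limits the precision.

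In neurons, voltage-gated channels admit calcium when the membrane depolarises: the pore subunit conducts, alpha2delta and beta subunits set how many channels reach the surface, and most gamma subunits made in brain instead serve as partners of AMPA receptors. Ryanodine and IP3 receptors release calcium from the endoplasmic reticulum, STIM proteins sense when that store is empty and open Orai channels, and SERCA and PMCA pumps return calcium to the store or expel it from the cell. These genes set the size and duration of the calcium signals that drive transmitter release, synaptic plasticity and transcription.

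A level here is a log2 value per probe set, and each gene is represented by its brightest probe set (highest mean over all arrays). A gene was called when limma's adjusted p, with Benjamini-Hochberg adjustment over 45037 probe sets, was 0.05 or less. Levels over all probe sets ran from 2.04 to 14.06, array medians from 5.44 to 5.52, and arrays of a genotype correlated at 0.973 or above. Of the 41 members, 33 lay above and 8 below the median probe set mean of 5.50. Hdac4 levels were 7.32 to 7.80 in Dble::R6/2 and 7.54 to 8.14 in R6/2, and 7.47 to 7.74 in Hdac4HET against 7.81 to 8.20 in WT. The log2 change of Hdac4 was -0.48 in Hdac4HET against WT (adjusted p = 0.0036) and -0.33 in Dble::R6/2 against R6/2 (adjusted p = 0.691).

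Several arrays stood apart. In 15 of 34 arrays the Xist and Y-linked transcripts went against the labelled sex (4 in Dble::R6/2, 1 in R6/2, 5 in Hdac4HET and 5 in WT). Prolactin exceeded a log2 level of 8 in 4 arrays, Hdac4HET replicate 1 and WT replicates 2, 6 and 7. Summed epidermal transcripts were 10.28 in R6/2 replicate 2, against 8.89 to 9.09 in the other R6/2 arrays, and summed skeletal muscle transcripts were 10.20 in Hdac4HET replicate 7, against 8.03 to 8.41 in the other Hdac4HET arrays. Counts without these arrays are given beside the results.

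The promoters of Ryr1 and Cacna2d3 are shown because both genes were lower in transgenic cortex on both Hdac4 backgrounds without overlap between groups, and each has a single start site in the table used. Each line holds the bases just before and after the RefSeq start, 5′ to 3′, on GRCm38.p6, with GC boxes (GGGCGG on either strand) in capitals.

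Ryr1, chr7:29125102-29125401, minus strand: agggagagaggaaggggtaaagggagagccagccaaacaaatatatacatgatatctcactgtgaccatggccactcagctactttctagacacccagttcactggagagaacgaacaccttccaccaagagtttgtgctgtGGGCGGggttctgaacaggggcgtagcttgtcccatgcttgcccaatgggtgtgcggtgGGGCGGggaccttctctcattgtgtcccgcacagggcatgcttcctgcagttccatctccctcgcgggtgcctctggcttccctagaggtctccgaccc
Cacna2d3, chr14:29721815-29722114, minus strand: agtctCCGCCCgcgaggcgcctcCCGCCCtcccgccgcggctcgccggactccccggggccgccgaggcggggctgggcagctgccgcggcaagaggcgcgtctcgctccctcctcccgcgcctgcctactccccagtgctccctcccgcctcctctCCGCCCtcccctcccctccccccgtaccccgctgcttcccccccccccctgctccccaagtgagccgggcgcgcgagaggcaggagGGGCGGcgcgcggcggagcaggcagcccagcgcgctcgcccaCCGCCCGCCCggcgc

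The Ryr1 window held 2 GC boxes and was 56.7% GC, and the Cacna2d3 window held 6 at 81.3% GC. Of 43 promoters of 32 members matched in the table, 62.8% held a GC box, against 35.7% of all 32851 promoters, and 11.6% against 2.91% held GCGGGGGCG, a variant of the Egr motif, whereas the Egr motif GCGTGGGCG was found in 0 against 0.612%. The CRE, TGACGTCA, was found in 0 against 1.79%, its core TGACG in 20.9% against 20.8%, CACGTG in 6.98% against 7.15%, and the MEF2 motif in 0 against 3.19%. Letters were counted on both strands and promoters were not matched for GC content, so these shares are descriptions.

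The first question was how the transgene changed these genes on a normal Hdac4 background. In R6/2 against WT cortex, 10 of the 41 members were called, 8 lower and 2 higher. Over all genes 32% were called, 11.8% lower and 20.2% higher, and the median log2 change was -0.11 over the members and 0.02 over all genes. On the Hdac4HET background, 18 members were called in Dble::R6/2 cortex and all 18 were lower, where 30% of all genes were called, 11.7% lower and 18.3% higher. There the median was -0.18 over the members and 0.02 over all genes. Members called on both backgrounds numbered 8, all with the same sign, and 2 were called in R6/2 against WT alone, 10 in Dble::R6/2 against Hdac4HET alone and 21 in neither. The share of all genes called on both backgrounds was not counted, so this split is not shown to be particular to the members. Neither comparison shares an array with the other.

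**Figure D1:**
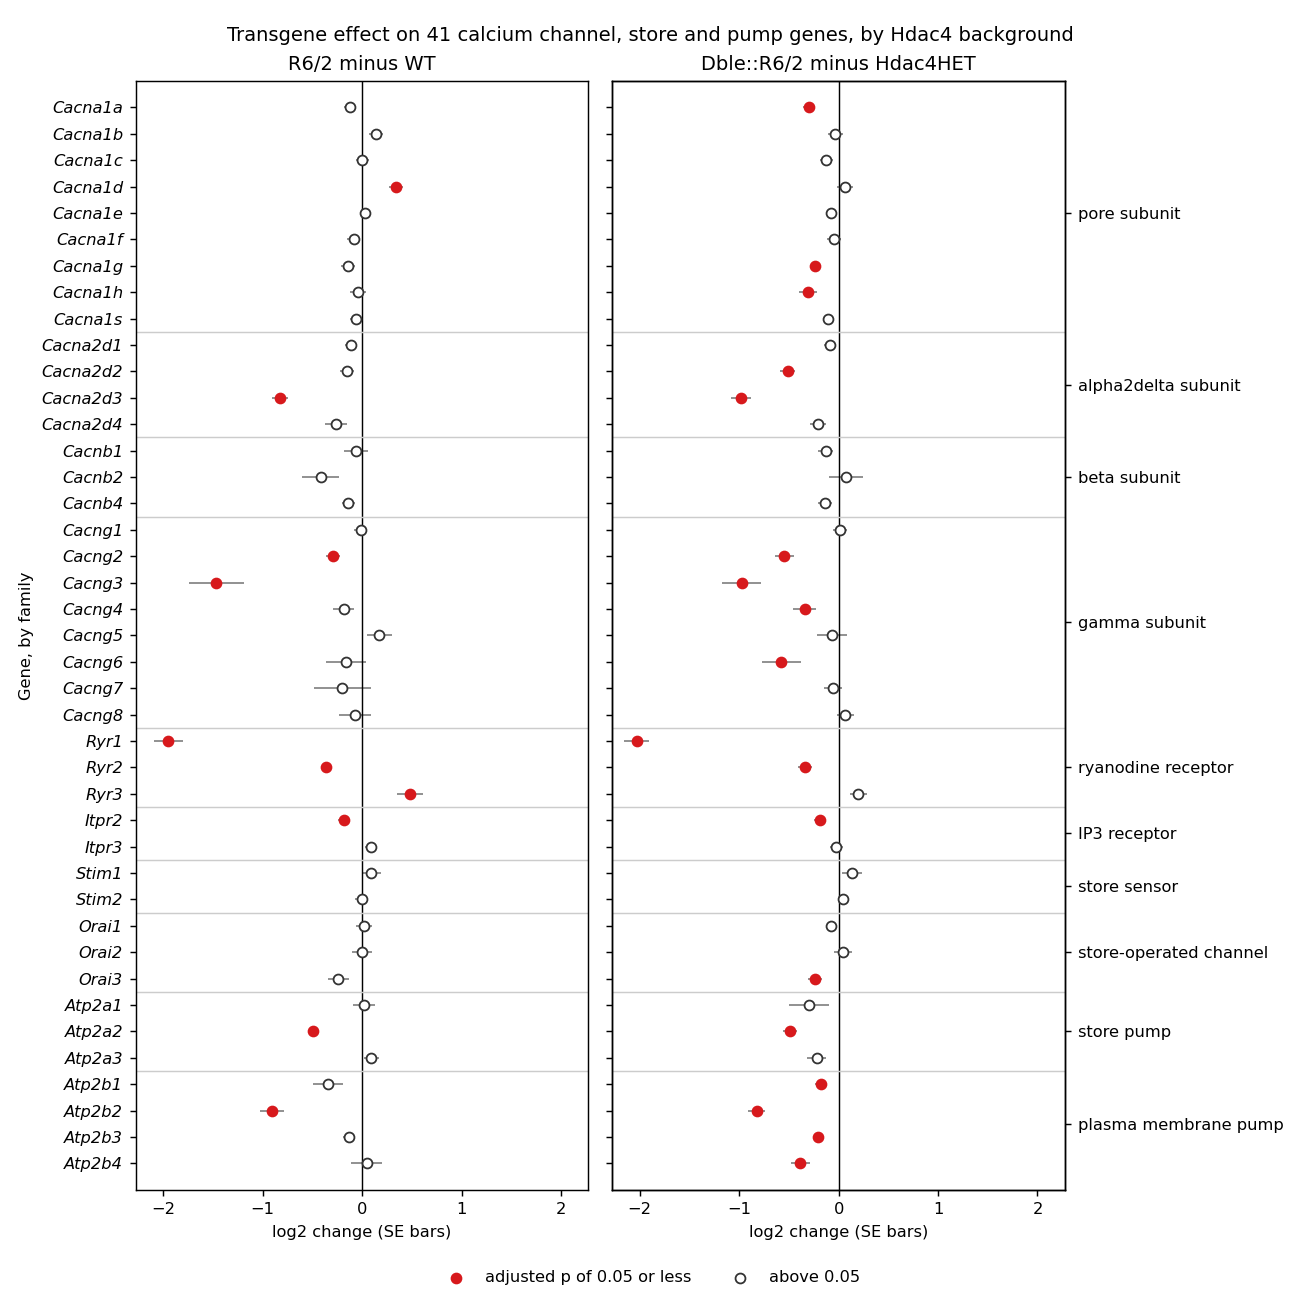
Log2 change of each of the 41 members, with its standard error, for R6/2 minus WT (left) and Dble::R6/2 minus Hdac4HET (right), with genes grouped by family and red points called. Ryr1 has the lowest point in both panels (-1.95 and -2.03), and no red point lies above 0 in the right panel.

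Among the 9 pore subunits, 1 was called higher in R6/2 against WT by its brightest probe set. Cacna1d encodes the L-type channel CaV1.3, which opens at fairly negative voltages. Its levels ran from 7.95 to 8.47 in R6/2 (median 8.01) and from 7.60 to 7.87 in WT (median 7.72), with a change of 0.34 ± 0.07 (SE, adjusted p = 9.8e-04) and no overlap between groups. Its levels in Dble::R6/2 ran from 7.64 to 8.17 (median 8.06) and in Hdac4HET from 7.72 to 8.26 (median 7.87), and the change was 0.07 ± 0.08 (adjusted p = 0.655). By their brightest probe sets, the remaining pore subunits lay between -0.14 and 0.14 in R6/2 against WT without a call.

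A further 3 pore subunits were lower in Dble::R6/2 than in Hdac4HET. Cacna1a, the P/Q-type channel of presynaptic terminals, had levels from 7.92 to 8.34 in Dble::R6/2 (median 8.18) and 8.31 to 8.56 in Hdac4HET (median 8.47), a change of -0.30 ± 0.06 (adjusted p = 9.86e-04). With its probe sets averaged the change of Cacna1a was -0.06 (adjusted p = 0.455), and another of its probe sets was called higher in R6/2 against WT (0.37, adjusted p = 0.00762). The T-type channels Cacna1h and Cacna1g, which carry low-threshold current, were also lower, at -0.30 ± 0.09 for Cacna1h (adjusted p = 0.0175) and -0.23 ± 0.05 for Cacna1g (adjusted p = 0.00299). Cacna1h was called in the other direction with its probe sets averaged (0.19, adjusted p = 0.0459) and was not called with the replicate block (-0.30, adjusted p = 0.0617). The R-type Cacna1e averaged 9.74 ± 0.05 in Dble::R6/2, 9.79 ± 0.09 in R6/2, 9.82 ± 0.04 in Hdac4HET and 9.76 ± 0.07 in WT (SD), with no call. The N-type Cacna1b (0.14 and -0.03 in R6/2 against WT and in Dble::R6/2 against Hdac4HET) had no call by its brightest probe set. Neither had Cacna1c of CaV1.2 (0.00 and -0.12), Cacna1f of the retina (-0.08 and -0.05) and Cacna1s of skeletal muscle (-0.06 and -0.10). The second probe set of Cacna1c was called higher in R6/2 against WT (0.21, adjusted p = 0.0498) and in Dble::R6/2 against Hdac4HET (0.19, adjusted p = 0.0119). A dimmer probe set of Cacna1b was called higher in Dble::R6/2 against Hdac4HET (0.36, adjusted p = 0.00102) but not in R6/2 against WT (0.18, adjusted p = 0.0977).

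Cacna2d3 was the alpha2delta subunit called on both backgrounds. Its levels ran from 8.13 to 8.81 in R6/2 (median 8.60) and from 9.24 to 9.55 in WT (median 9.43). They ran from 8.02 to 8.70 in Dble::R6/2 (median 8.43) and from 8.96 to 9.64 in Hdac4HET (median 9.36). Groups did not overlap on either background, and the changes were -0.82 ± 0.08 (adjusted p = 5.83e-07) in R6/2 and -0.98 ± 0.10 (adjusted p = 5.02e-07) in Dble::R6/2, which left 56.5% and 50.7% of the level without the transgene. Cacna2d2 changed by -0.51 ± 0.07 in Dble::R6/2 against Hdac4HET (adjusted p = 4.0e-05) without overlap, and by -0.15 ± 0.07 in R6/2 against WT (adjusted p = 0.126; -0.19 without R6/2 replicate 4, adjusted p = 0.0473).

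Cacna2d1, whose product binds gabapentin, averaged 10.74 ± 0.12 in Dble::R6/2, 10.76 ± 0.16 in R6/2, 10.83 ± 0.10 in Hdac4HET and 10.87 ± 0.05 in WT and was not called. Without R6/2 replicate 2 it was called lower (-0.15 ± 0.05, adjusted p = 0.0356). Cacna2d4 gave -0.26 in R6/2 against WT and -0.21 in Dble::R6/2 against Hdac4HET, and was called in Dble::R6/2 against Hdac4HET without Dble::R6/2 replicate 2 (-0.24, adjusted p = 0.0413) and without Hdac4HET replicate 3 (-0.25, adjusted p = 0.0395). By its brightest probe set, none of the 3 beta subunits, which bind the pore inside the cell, was called by limma for the transgene. Of the 3, Cacnb2 and Cacnb4 had an unadjusted p under 0.05 in R6/2 against WT. Other probe sets were called lower there: the third of Cacnb1 (-1.13), the second of Cacnb2 (-1.07, adjusted p = 0.0262) and the second of Cacnb4 (-0.27, adjusted p = 8.5e-04). In Dble::R6/2 against Hdac4HET those of Cacnb1 (-1.04) and Cacnb4 (-0.24) were called lower, and that of Cacnb2 was not called (-0.18). With probe sets averaged, all 3 were called in R6/2 against WT. Cacnb2 gave -0.42 and 0.07 and Cacnb1 -0.06 and -0.13 in R6/2 against WT and in Dble::R6/2 against Hdac4HET. Cacnb4 averaged 11.35 ± 0.15 in Dble::R6/2, 11.43 ± 0.12 in R6/2, 11.49 ± 0.13 in Hdac4HET and 11.56 ± 0.12 in WT, and was called without R6/2 replicate 2 (-0.17 ± 0.06, adjusted p = 0.0269).

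Among the gamma subunits, Cacng3 and Cacng2 were lower on both backgrounds; both encode AMPA receptor partners (TARPs), Cacng2 being stargazin. Cacng3 levels ran from 5.15 to 7.88 in R6/2 (median 7.17) and from 7.54 to 8.97 in WT (median 8.66), so that all 9 R6/2 arrays lay below the WT median and the ranges overlapped. The lowest R6/2 array was replicate 2 and the lowest WT array replicate 8. The change was -1.47 ± 0.28 (adjusted p = 5.4e-04), and -1.23 ± 0.17 without R6/2 replicate 2. Cacng3 in Dble::R6/2 ran from 6.16 to 7.58 (median 7.09) and in Hdac4HET from 7.30 to 8.57 (median 7.95), a change of -0.98 ± 0.20 (adjusted p = 0.00115).

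Cacng2 ran from 9.27 to 9.65 in R6/2 (median 9.39) and from 9.51 to 9.98 in WT (median 9.69), and 7 of 9 R6/2 arrays lay below every WT array (-0.29 ± 0.07, adjusted p = 0.00522). It ran from 9.13 to 9.83 in Dble::R6/2 (median 9.50) and from 9.83 to 10.34 in Hdac4HET (median 10.06), with no overlap, the highest Dble::R6/2 array lying just below the lowest Hdac4HET array (-0.55 ± 0.09, adjusted p = 2.18e-04). Beside them, in Dble::R6/2 against Hdac4HET, Cacng6, a relative of the muscle gamma subunit, and Cacng4, another TARP, were also called at -0.57 ± 0.19 (adjusted p = 0.0353) and -0.34 ± 0.11 (adjusted p = 0.0327). Both calls were thin. That of Cacng6 was lost, at an adjusted p of 0.053 to 0.073, without any of Hdac4HET replicates 1, 2, 3, 4, 6 or 8 or Dble::R6/2 replicates 3, 5, 6, 7 or 8. That of Cacng4 was lost, at 0.0621 to 0.0721, without Hdac4HET replicate 5, 6 or 7 or Dble::R6/2 replicate 5 or 6. In R6/2 against WT Cacng6 gave -0.16 and Cacng4 -0.18 without a call. Cacng1, Cacng5, Cacng7 and Cacng8 gave -0.01, 0.17, -0.20 and -0.07 in R6/2 against WT, and 0.01, -0.06, -0.06 and 0.07 in Dble::R6/2 against Hdac4HET. Without R6/2 replicate 2, Cacng7 gave 0.08 (adjusted p = 0.700) and Cacng8 0.08 (adjusted p = 0.557) in R6/2 against WT.

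**Figure D2:**
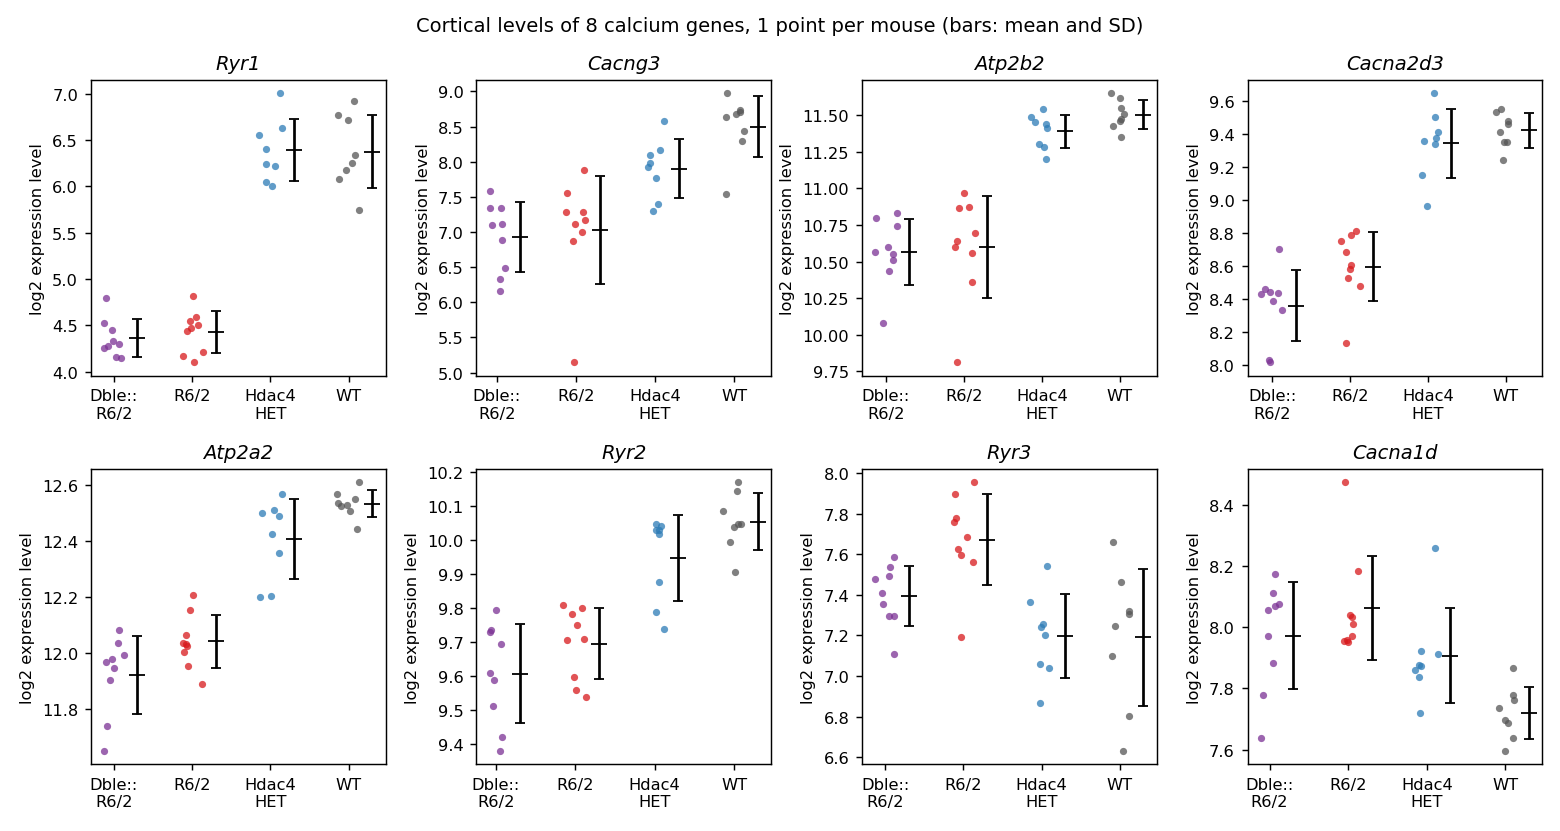
Log2 expression level of 8 members in each mouse, by genotype, with mean and SD beside the points. Ryr1, Atp2b2, Cacna2d3 and Atp2a2 lie lower in each transgenic group than in its own control group, without overlap, whereas the ranges overlap for Ryr3.

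The 3 ryanodine receptors did not move together. Ryr1, the release channel best known from skeletal muscle and also made in neurons, ran from 4.10 to 4.82 in R6/2 (median 4.48) and from 5.74 to 6.92 in WT (median 6.29). It ran from 4.14 to 4.80 in Dble::R6/2 (median 4.30) and from 6.005 to 7.004 in Hdac4HET (median 6.33). Every transgenic array lay below every array without the transgene. The changes were -1.95 ± 0.14 (adjusted p = 1.67e-08) and -2.03 ± 0.12 (adjusted p = 7.75e-10). The highest Hdac4HET value belonged to replicate 7, the array with muscle transcripts, and without it the change in Dble::R6/2 was -1.94 ± 0.11. Summed muscle transcripts ran from 7.57 to 8.36 in R6/2 and from 8.12 to 8.38 in WT. They ran from 7.60 to 7.95 in Dble::R6/2 and from 8.03 to 10.20 in Hdac4HET. Of 7 muscle markers 1 was called lower and 0 higher in each comparison. Their part in the Ryr1 changes was not tested. Transgenic levels of Ryr1 lay below the median probe set mean of 5.50.

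Ryr2, the cardiac-type receptor, ran from 9.54 to 9.81 in R6/2 (median 9.71) and from 9.90 to 10.17 in WT (median 10.05), with no overlap (-0.36 ± 0.06, adjusted p = 7.24e-05). It ran from 9.38 to 9.79 in Dble::R6/2 (median 9.61) and from 9.74 to 10.05 in Hdac4HET (median 10.02; -0.34 ± 0.07, adjusted p = 0.00112), where the ranges overlapped. Ryr3 moved the other way. It ran from 7.19 to 7.95 in R6/2 (median 7.69) and from 6.63 to 7.66 in WT (median 7.28), and 5 of 9 R6/2 arrays lay above every WT array (0.48 ± 0.13, adjusted p = 0.00776). Its range in Dble::R6/2 was from 7.11 to 7.59 (median 7.41) and in Hdac4HET from 6.87 to 7.54 (median 7.22), a change of 0.20 ± 0.09 (adjusted p = 0.108) that was called without Hdac4HET replicate 3 (0.25, adjusted p = 0.0318) or Dble::R6/2 replicate 8 (0.23, adjusted p = 0.0481).

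Itpr2, the IP3 receptor prominent in astrocytes, ran from 6.36 to 6.79 in R6/2 (median 6.57) and from 6.71 to 6.97 in WT (median 6.75; -0.18 ± 0.06, adjusted p = 0.036). It ran from 6.54 to 6.92 in Dble::R6/2 (median 6.65) and from 6.78 to 7.04 in Hdac4HET (median 6.88; -0.19 ± 0.06, adjusted p = 0.0285). Ranges overlapped on both backgrounds. The first call was lost, at an adjusted p of 0.0559 to 0.0717, without WT replicate 3, 4 or 8 or R6/2 replicate 1, 3, 5, 8 or 9, and the second, at 0.0501 to 0.0601, without Hdac4HET replicate 4 or 6 or Dble::R6/2 replicate 3, 6 or 7. Itpr3 gave 0.09 and -0.02, without a call.

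Among the 5 genes of store-operated entry, Orai3, a channel subunit, was lower in Dble::R6/2 than in Hdac4HET (-0.24 ± 0.07, adjusted p = 0.0152) and the only one called by its brightest probe set, with levels from 5.78 to 6.24 in Dble::R6/2 (median 6.11) and from 6.17 to 6.49 in Hdac4HET (median 6.36). The Orai3 call was lost in the single fit of 4 genotypes (adjusted p = 0.0587). In R6/2 against WT it gave -0.24 ± 0.11 (adjusted p = 0.114). The store sensor Stim2 averaged 9.27 ± 0.07 in Dble::R6/2, 9.29 ± 0.12 in R6/2, 9.23 ± 0.11 in Hdac4HET and 9.29 ± 0.11 in WT. The second probe set of Stim2 was called lower in R6/2 against WT (-0.34, adjusted p = 0.00454) and in Dble::R6/2 against Hdac4HET (-0.50, adjusted p = 8.6e-05). Stim1 gave 0.09 and 0.13 and Orai1 0.02 and -0.07. Orai2 averaged 7.22 ± 0.20 in Dble::R6/2, 7.35 ± 0.25 in R6/2, 7.17 ± 0.17 in Hdac4HET and 7.35 ± 0.17 in WT.

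By their brightest probe sets, the pumps that were called were lower. Atp2b2 encodes PMCA2, a fast plasma membrane pump of neurons and hair cells. Its levels ran from 9.81 to 10.97 in R6/2 (median 10.64) and from 11.35 to 11.65 in WT (median 11.49), and from 10.08 to 10.83 in Dble::R6/2 (median 10.56) and from 11.20 to 11.54 in Hdac4HET (median 11.43). Groups did not overlap, and the changes were -0.91 ± 0.12 (adjusted p = 1.5e-05) and -0.82 ± 0.09 (adjusted p = 9.65e-07), leaving 53.3% and 56.6%. Atp2a2, the SERCA2 pump that refills the store, ran from 11.89 to 12.21 in R6/2 (median 12.03) and from 12.44 to 12.61 in WT (median 12.53; -0.49 ± 0.05, adjusted p = 7.70e-07). It ran from 11.65 to 12.08 in Dble::R6/2 (median 11.97) and from 12.20 to 12.57 in Hdac4HET (median 12.46; -0.49 ± 0.07, adjusted p = 3.92e-05), again without overlap.

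The plasma membrane pump Atp2b1 (PMCA1) ran from 11.53 to 11.85 in Dble::R6/2 (median 11.66) and from 11.75 to 12.00 in Hdac4HET (median 11.82; -0.18 ± 0.05, adjusted p = 0.0185). It ran from 10.26 to 11.77 in R6/2 (median 11.60) and from 11.73 to 11.95 in WT (median 11.80), and replicate 2 was the low R6/2 array. The change of -0.34 ± 0.15 was not called (adjusted p = 0.104), and without that array it was -0.19 ± 0.05 (adjusted p = 0.00588). The call in Dble::R6/2 against Hdac4HET was lost with the replicate block and in the single fit of 4 genotypes. With all arrays, the third probe set of Atp2b1 was called lower in R6/2 against WT (-0.57, adjusted p = 0.00392). It was also called lower in Dble::R6/2 against Hdac4HET (-0.41, adjusted p = 3.1e-06). The second probe set was called in neither (-0.10 and -0.30). Atp2b3 (PMCA3) and Atp2b4 (PMCA4) were lower in Dble::R6/2 than in Hdac4HET at -0.20 ± 0.05 (adjusted p = 0.00566) and -0.38 ± 0.10 (adjusted p = 0.0075), and the second probe set of Atp2b3 was called higher (0.26, adjusted p = 0.00437). In R6/2 against WT they gave -0.13 and 0.05, and Atp2b3 was called without R6/2 replicate 2 (-0.16, adjusted p = 0.0256) or WT replicate 1 (-0.16, adjusted p = 0.0486). Atp2a1, the fast muscle SERCA, gave 0.02 in R6/2 against WT and -0.30 in Dble::R6/2 against Hdac4HET; it was 6.47 on the array with muscle transcripts, without which that change was -0.08. Atp2a3 gave 0.09 and -0.22, and was called in Dble::R6/2 against Hdac4HET without Dble::R6/2 replicate 8 (-0.28, adjusted p = 0.0176).

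Every array of R6/2 lay below every WT array for 5 members (Ryr1, Ryr2, Cacna2d3, Atp2a2 and Atp2b2), where the share over all genes was 3.81%, and above it for 1 (Cacna1d), against 6.31%. Without overlap, 6 members were lower in Dble::R6/2 than in Hdac4HET (Ryr1, Cacna2d3, Cacna2d2, Cacng2, Atp2a2 and Atp2b2), where the share was 4.36%, and 0 were higher, against 4.41%. Without the arrays that went against their labelled sex, 7 members were called in R6/2 against WT (6 lower and 1 higher, in 8 and 3 arrays) and 9 in Dble::R6/2 against Hdac4HET (all lower, in 5 and 3 arrays). Calls over all probe sets were then 8159 in R6/2 against WT, against 12127 with all arrays, and 3687 in Dble::R6/2 against Hdac4HET, against 10422. The calls of Cacng2, Itpr2 and Ryr3 were then lost in R6/2 against WT, and in Dble::R6/2 against Hdac4HET those of Atp2b1, Atp2b3, Atp2b4, Cacna1a, Cacna1g, Cacna1h, Cacng4, Itpr2 and Orai3. Without the arrays high in prolactin the counts were 9 and 17 (8040 and 9836 over all probe sets), and without R6/2 replicate 2 there were 14 in R6/2 against WT, 2 higher and 12 lower (12721 over all probe sets). Without Hdac4HET replicate 7 there were 17 in Dble::R6/2 against Hdac4HET (9804 over all probe sets), where Cacng4 was lost.

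The 41 members had 96 probe sets, and the probe sets of the 31 with more than 1 are plotted for R6/2 against WT. Probe sets of a gene did not always move together. In R6/2 against WT, 26 of the 96 were called lower and 7 higher, where 26.9% of all probe sets were called, 12% lower and 14.9% higher. Of the same 96, in Dble::R6/2 against Hdac4HET, 33 were called lower and 5 higher, where 23.1% were called, 9.98% lower and 13.2% higher. In Hdac4HET against WT, 5 were lower and 4 higher, where 3.91% were called, 2.23% lower and 1.67% higher. All 6 probe sets of Atp2a2 were lower in R6/2 (-0.35 to -0.96), as were all 3 of Atp2b2, the dimmest of them by -1.46 ± 0.08 (adjusted p = 7.8e-10), and both of Ryr1, the second by -1.20. In Dble::R6/2 against Hdac4HET all 3 of Atp2b2 and both of Ryr1 were called lower too. The 6 of Atp2a2 changed there by -0.14 to -0.69, and not all were called (adjusted p up to 0.543).

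Within a gene, probe sets differed in direction or in call. Cacna1d, higher by its brightest probe set, was lower by its second one (-0.81 ± 0.13, adjusted p = 8.3e-05), at 3.72 to 4.40 in R6/2 and 4.34 to 5.39 in WT. A second probe set of Cacng8, a TARP uncalled by its brightest, was higher in both transgenic groups, at 5.96 to 6.71 in R6/2 and 4.41 to 5.13 in WT, and 5.34 to 6.67 in Dble::R6/2 and 4.82 to 5.41 in Hdac4HET (1.35 ± 0.11, adjusted p = 4.5e-08, and 1.33 ± 0.15, adjusted p = 1.5e-06). The third probe set of Cacnb1 was lower (-1.13 and -1.04), the second of Cacna1h higher (0.63 and 0.68), and the second of Orai2 lower in R6/2 (-0.67 ± 0.14). In Dble::R6/2 against Hdac4HET, Cacna1h and Atp2b3 had called probe sets in both directions. When the probe sets of each gene were averaged, Cacna1d was lower in R6/2 than in WT (-0.24, adjusted p = 0.00809), and in Dble::R6/2 against Hdac4HET Cacna1h was higher (0.19, adjusted p = 0.0459) and Atp2b3 gave 0.03 (adjusted p = 0.713). Which transcript each probe set reads was not tested.

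**Figure D3:**
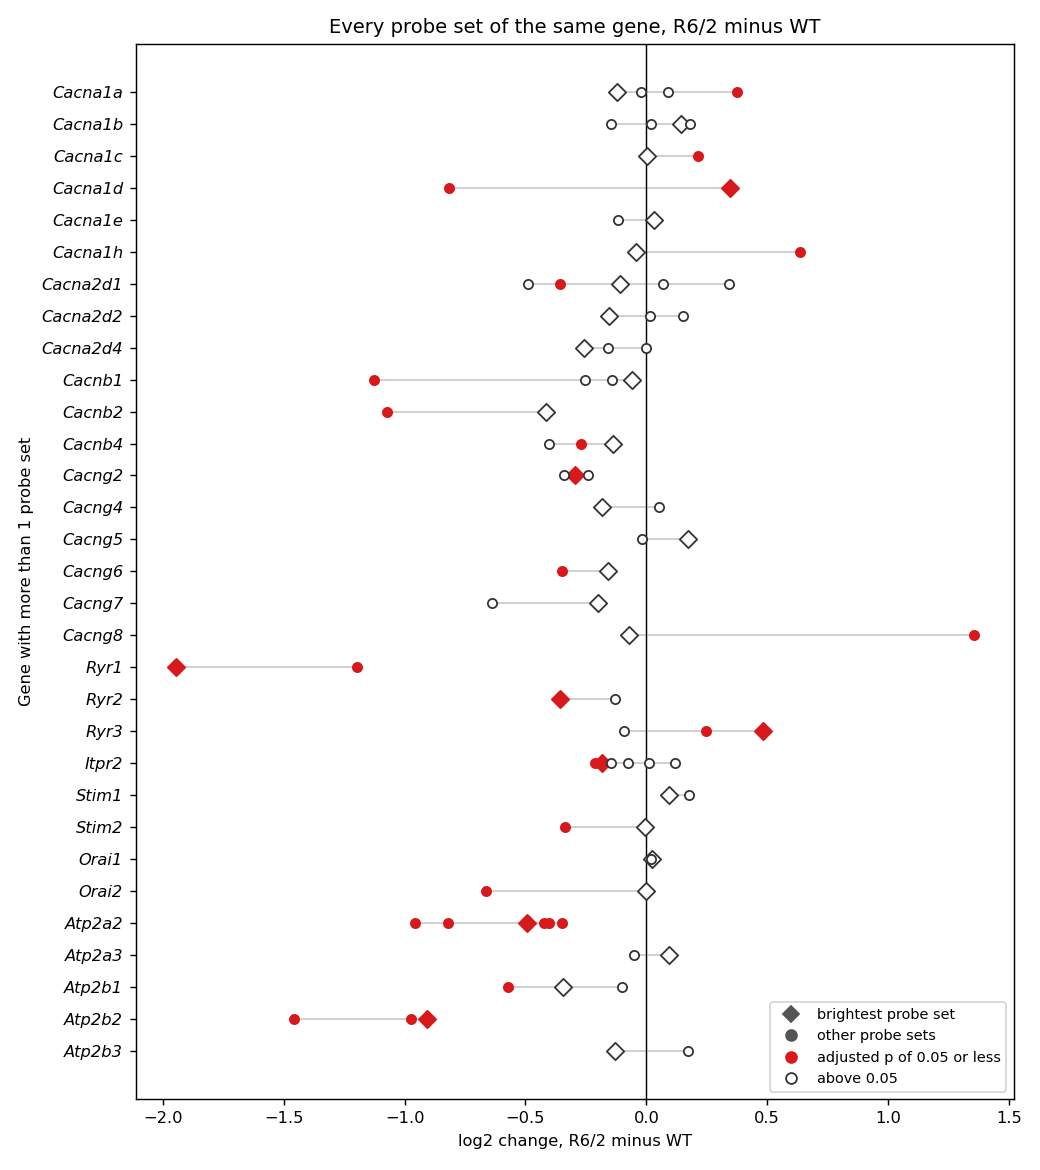
Log2 change, R6/2 minus WT, of every probe set of the 31 members with more than 1; diamonds are the brightest probe set, circles the others, and red symbols were called. Cacna1d has called probe sets on both sides of 0, and Cacng8 a called circle at 1.35 beside an uncalled diamond at -0.07.

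The second question was what 1 targeted Hdac4 allele did. Without the transgene, 3 of the 41 members were called in Hdac4HET against WT, 2 higher and 1 lower, where 3.17% of all genes were called, 1.46% higher and 1.71% lower. Cacna2d2 ran from 8.83 to 9.10 in Hdac4HET (median 8.99) and from 8.34 to 8.77 in WT (median 8.56), with no overlap (0.42 ± 0.06, adjusted p = 0.00744); over all genes 0.165% were higher without overlap. Cacng2 ran from 9.83 to 10.34 in Hdac4HET (median 10.06) and from 9.51 to 9.98 in WT (median 9.69; 0.35 ± 0.08, adjusted p = 0.0334), and Cacnb2, a beta subunit, from 6.10 to 7.10 in Hdac4HET (median 6.75) and from 6.74 to 7.46 in WT (median 7.20; -0.53 ± 0.14, adjusted p = 0.04). Cacng2 ranges overlapped in 2 of 8 Hdac4HET arrays and Cacnb2 ranges in 4.

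Most of these calls depended on single arrays. No member was called without the 4 arrays high in prolactin or without the arrays against their labelled sex. There limma found 5 members at an unadjusted p under 0.05 in each case, against 11 of 41 with all arrays. Shares of all genes at that unadjusted threshold were not counted. Of the 45037 probe sets, 5 were called without the arrays high in prolactin and 26 without those against their labelled sex, against 1760 with all arrays. The Cacng2 call was lost, at an adjusted p of 0.0514 to 0.0718, without WT replicate 1, 2, 3, 6 or 7 or Hdac4HET replicate 2, 5, 6, 7 or 8, and the Cacnb2 call, at 0.0517 to 0.084, without WT replicates 1 to 7 taken singly or Hdac4HET replicate 2, 5, 6, 7 or 8. Cacng3 (-0.60 ± 0.19, adjusted p = 0.0747) was called without WT replicate 8 (-0.74, adjusted p = 0.0108) or Hdac4HET replicate 3 (-0.70, adjusted p = 0.0327). Without Hdac4HET replicate 7, Cacna2d2 alone was called, and 218 probe sets in all. Cacna2d2 stayed called when any single array was left out, but not without either set of arrays above, nor with its 3 probe sets averaged (0.17, adjusted p = 0.079).

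**Figure D4:**
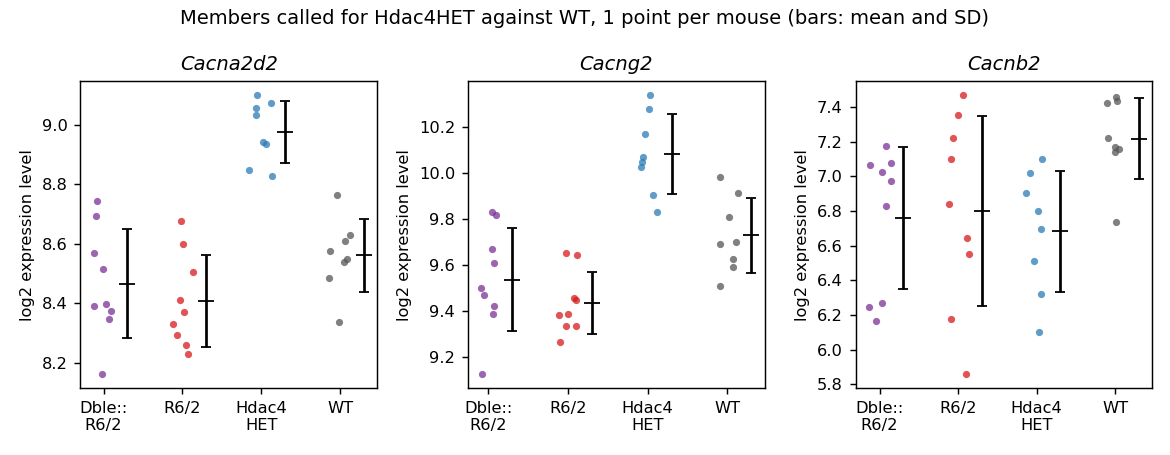
Log2 expression level of Cacna2d2, Cacng2 and Cacnb2, the members called in Hdac4HET against WT, in each mouse of the 4 genotypes, with mean and SD. Cacna2d2 lies between 8.83 and 9.10 in Hdac4HET, above every WT array, and at 8.16 to 8.75 in Dble::R6/2.

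With the transgene, limma called 0 of the 41 members in Dble::R6/2 against R6/2, where it called 0% of all genes and 0.00666% of probe sets (0.00222% lower and 0.00444% higher), and the methods' t-test called 0 too. At an unadjusted p under 0.05 there were 6 members: Cacna1c (-0.26 ± 0.06), Ryr3 (-0.28 ± 0.09), Cacng6 (-0.40 ± 0.15), Cacna2d3 (-0.24 ± 0.10), Cacna1g (-0.13 ± 0.06) and Cacna1b (-0.16 ± 0.07). The share of all genes at that threshold was not counted, so these 6 are not shown to exceed it. The median over the members was -0.05. The 95% intervals of the 41 changes reached at most 0.71 in either direction, and for Ryr1 the interval ran from -0.28 to 0.14, for Atp2a2 from -0.25 to 0.01 and for Atp2b2 from -0.30 to 0.24.

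**Figure D5:**
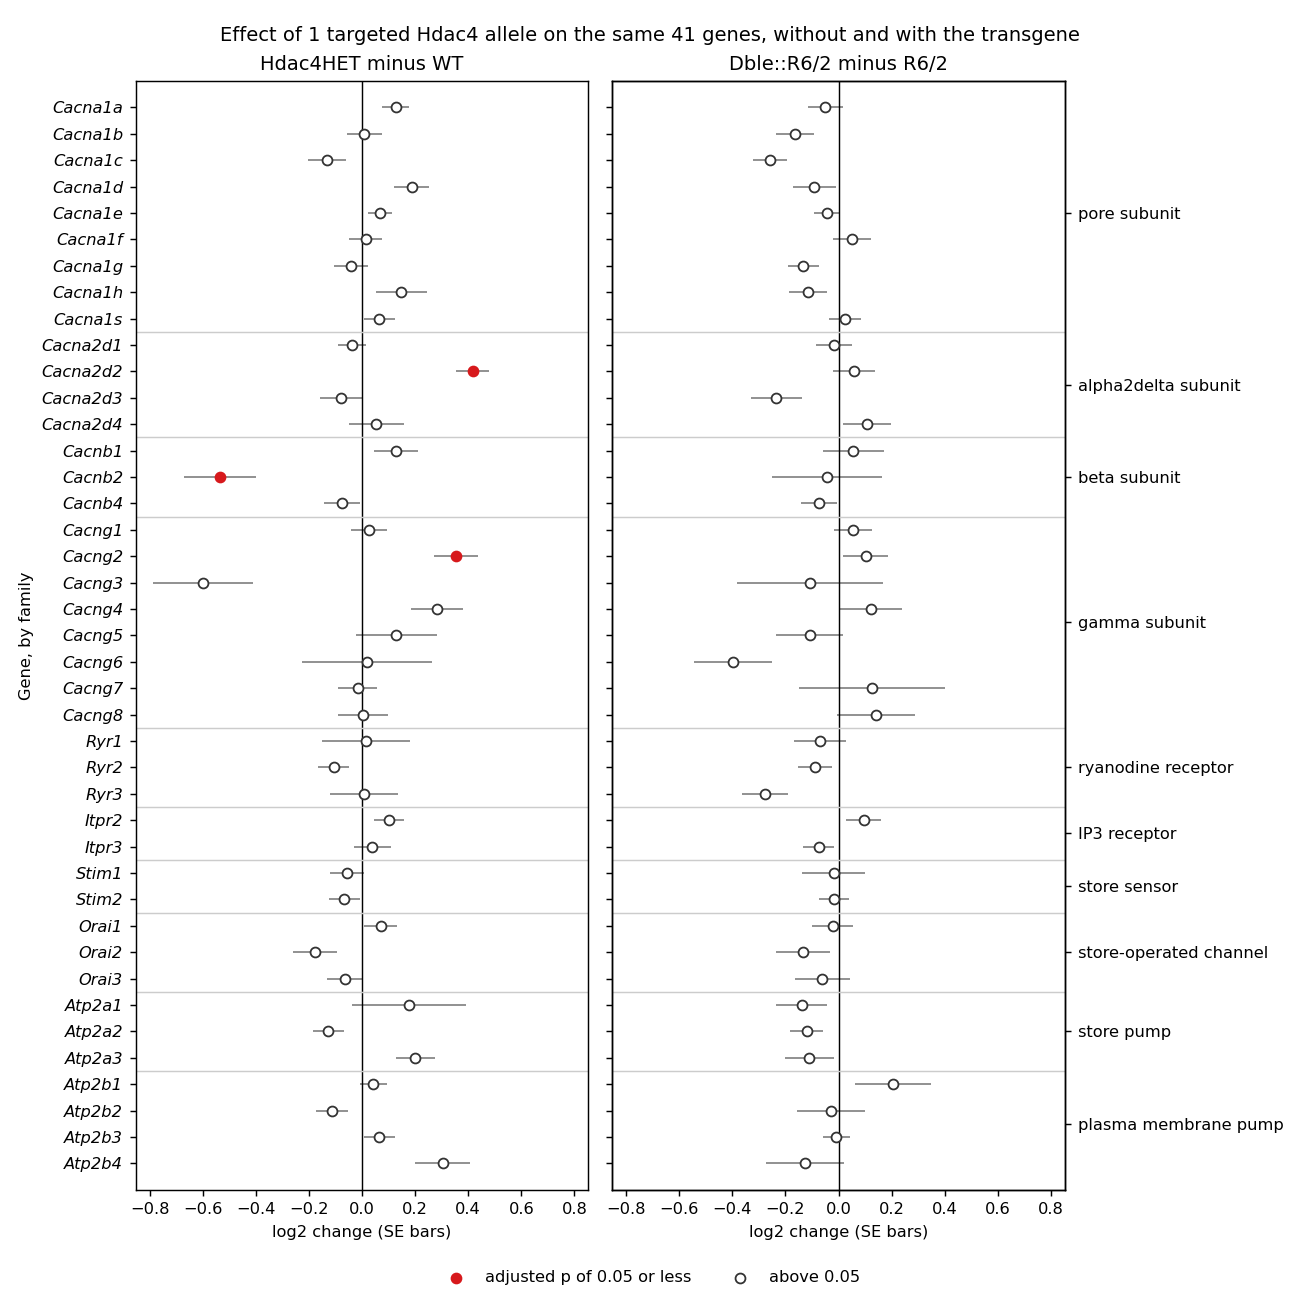
Log2 change with its standard error of the same 41 members for Hdac4HET minus WT (left) and Dble::R6/2 minus R6/2 (right), by family; red points were called. On the left 3 points are red and on the right 0, and Cacng3 lies at -0.60 on the left.

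Whether the transgene's effect depended on the Hdac4 allele was tested as the interaction. Limma called 0 of the 41 members and 0% of all genes, and 7 members had an unadjusted p under 0.05: Cacna2d2 (-0.36 ± 0.10), Cacna1d (-0.28 ± 0.11), Atp2a3 (-0.31 ± 0.12), Atp2b4 (-0.43 ± 0.19), Cacna1h (-0.26 ± 0.12), Cacna1a (-0.18 ± 0.08) and Cacng2 (-0.25 ± 0.12). How many of all genes passed that unadjusted threshold was not counted. Cacna2d2 had the smallest adjusted p of the 7 members (0.238). Its 4 group means were 8.47, 8.41, 8.98 and 8.56 in Dble::R6/2, R6/2, Hdac4HET and WT. The members called on 1 background alone are therefore not shown to differ between backgrounds.

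Other genes of the calcium pathway were taken from 4 lists. For these lists and the cell type markers below, the shares over all genes in R6/2 against WT were 11.8% called lower and 20.2% higher. In Dble::R6/2 against Hdac4HET they were 11.7% lower and 18.3% higher. Of 18 calcium sensors and buffers, 14 were lower and 0 higher in R6/2 against WT (median -0.52), and 15 and 0 in Dble::R6/2 against Hdac4HET (median -0.44). Necab3 (-1.05 and -1.23), Hpcal1 (-0.85 and -0.99), Cabp1 (-0.81 and -0.51) and the hippocalcin gene Hpca (-0.77 and -0.58) were the largest in R6/2. Of 31 store and channel partners, 11 were lower and 5 higher in R6/2 against WT (median -0.12), among them the channel adaptor Stac2 (-1.10), the TARP-like Gsg1l (-0.94), the junctophilin Jph4 (-0.65) and the scaffold Homer1 (-0.65), and 10 were lower and 3 higher in Dble::R6/2 against Hdac4HET (median -0.13).

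Of 17 exchangers and mitochondrial uptake genes, 3 were lower and 3 higher in R6/2 against WT (median 0.01) and 3 lower and 4 higher in Dble::R6/2 against Hdac4HET (median 0.11). The exchangers Slc24a2 (-0.54), Slc24a4 (-0.49) and Slc8a2 (-0.39) were lower, and Slc8a3 (0.39) was higher, in R6/2. Of 20 TRP and other channels, 3 were lower and 4 higher (median -0.04), with Tmem63c at 0.79, Trpc6 at -0.76, Trpc4 at 0.58 and Pkd1 at 0.35, and 3 lower and 2 higher in Dble::R6/2 against Hdac4HET (median 0.05).

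Markers of several cell types also changed, not all in the same direction. All 6 cortical neuron markers were lower in R6/2 against WT, and their summed level was 14.52 to 14.66 in R6/2 and 14.83 to 14.92 in WT. Of 5 interneuron markers 4 were lower, with sums of 11.96 to 12.40 in R6/2 and 13.06 to 13.22 in WT, and 3 of 5 astrocyte (with 1, Gfap, higher) and 3 of 5 microglial markers were lower, with sums of 12.19 to 12.56 in R6/2 and 12.43 to 12.80 in WT for astrocytes, and 10.90 to 11.48 in R6/2 and 11.24 to 11.84 in WT for microglia. In Dble::R6/2 against Hdac4HET, 5 of 6 neuronal markers were lower (sums of 14.33 to 14.61 in Dble::R6/2 and 14.71 to 14.90 in Hdac4HET), as were all 5 interneuron markers (11.96 to 12.28 in Dble::R6/2 and 12.92 to 13.18 in Hdac4HET). There 3 of 5 astrocyte markers were lower (12.22 to 12.58 in Dble::R6/2 and 12.61 to 12.86 in Hdac4HET), as were all 5 microglial markers (10.98 to 11.49 in Dble::R6/2 and 11.28 to 11.70 in Hdac4HET). Oligodendrocyte markers were lower for 2 of 4 in R6/2 against WT (sums of 13.63 to 13.92 in R6/2 and 13.57 to 14.22 in WT) and for 1 of 4 in Dble::R6/2 against Hdac4HET. Of 5 choroid plexus markers 3 were higher in R6/2 against WT (sums of 9.89 to 13.01 in R6/2 and 8.68 to 11.25 in WT) and 0 were called in Dble::R6/2 against Hdac4HET (8.78 to 13.96 in Dble::R6/2 and 9.17 to 12.22 in Hdac4HET). Of 5 endothelial markers 1 was higher and 0 lower in R6/2 against WT (sums of 9.81 to 10.16 in R6/2 and 9.46 to 9.92 in WT). In Dble::R6/2 against Hdac4HET 1 was lower and 0 higher (9.81 to 10.31 in Dble::R6/2 and 9.79 to 10.27 in Hdac4HET). Of 6 cerebellar Purkinje and granule cell markers 2 were lower and 0 higher in each comparison. Their sums were 8.59 to 9.23 in R6/2 and 9.02 to 9.51 in WT, and 8.71 to 9.27 in Dble::R6/2 and 9.09 to 9.36 in Hdac4HET. The part of cell composition in the changes above was not tested, and in bulk tissue fewer cells of a type and less RNA per cell cannot be told apart.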

How the data were processed

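The deposited values were log2 expression values per probe set of Affymetrix whole-genome mouse arrays, 1 array per mouse, in a single table that the authors had normalized. Per the study's methods, arrays of poor quality were excluded by the authors; how background was corrected, arrays normalized and probes summarised is not given in the sources used here. Of 45037 probe sets, 34945 carried 1 gene symbol, 932 several and 9160 none, and those with several were not used to name a gene. Each gene was represented by its probe set of highest mean over all arrays. The members, lists and comparisons were chosen with earlier results of these data known.

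Each pair of groups was fitted on the log2 values with limma 3.58.1 (lmFit and eBayes, no covariate) in R 4.3.3, with Benjamini-Hochberg adjustment over all probe sets and a call at an adjusted p of 0.05 or less; the interaction was fitted over all 4 genotypes. Errors of changes are standard errors, those of levels SD. The fit was tested on simulated data. Named in full were the 12 largest called members in R6/2 against WT (10 were called) and the brightest of each family. So was every member called in Hdac4HET against WT, in Dble::R6/2 against R6/2 or for the interaction. Tables were made with pandas 2.3.3, numpy 2.4.6 and scipy 1.17.1 in Python 3.11.15, and plots with matplotlib 3.10.9.

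Alternatives were quantile normalization, brighter probe sets only, sex as a covariate (labelled, or read from Xist), a replicate block, a single fit of 4 genotypes, eBayes with trend and robust, the methods' t-test, averaging the probe sets of each gene, and fits without the arrays high in prolactin, without R6/2 replicate 2, and without each array. Leaving out the arrays against their labelled sex was chosen after seeing the data. A promoter sequence of 1 further member is not reported here.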

Additional observations from a re-analysis of the deposited data

Results flagged for a closer look

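Single arrays stood apart from the rest of their genotype in 20 of 164 groups of a member's log2 levels, judged by the gap to the nearest array over the range; chance alone flags about 1 in 20 groups, or 8.2 here. R6/2 replicate 2, the array with epidermal transcripts, accounted for 11 of the 20. It was the lowest R6/2 array for Atp2b1 (10.26, others 11.51 to 11.77), Cacna2d3 (8.13, others 8.48 to 8.81), Cacnb1 (7.66, others 8.31 to 8.67), Cacng3 (5.15, others 6.87 to 7.88), Cacng7 (6.11, others 7.94 to 8.93), Cacng8 (5.13, others 6.23 to 6.68) and Orai3 (5.42, others 6.08 to 6.37). It was the highest R6/2 array for Atp2b3 (10.81, others 10.49 to 10.64), Atp2b4 (7.73, others 6.11 to 6.91), Cacna1d (8.47, others 7.95 to 8.18) and Cacnb4 (11.72, others 11.30 to 11.47).

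The other arrays that stood apart did so for 1 or 2 members each. Above the rest of their genotype lay Atp2a1 (5.37, others 4.54 to 4.83, R6/2 replicate 8), Atp2a1 (6.47, others 4.57 to 4.88, Hdac4HET replicate 7), Atp2b4 (6.93, others 6.37 to 6.63, Dble::R6/2 replicate 2), Cacna1d (8.26, others 7.72 to 7.92, Hdac4HET replicate 4) and Cacna2d4 (4.96, others 4.16 to 4.53, WT replicate 7). Below it lay Cacnb2 (6.74, others 7.14 to 7.46, WT replicate 8), Cacng3 (7.54, others 8.30 to 8.97, WT replicate 8), Cacng6 (3.49, others 4.51 to 5.24, WT replicate 1) and Orai3 (5.78, others 6.01 to 6.24, Dble::R6/2 replicate 1). Hdac4HET replicate 7 is the array with skeletal muscle transcripts. Their part in the values was not tested.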

How the results depend on the processing

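Of 872 values of called genes recomputed, 776 kept their direction and call, 93 kept the direction and lost the call, and 3 turned: with probe sets averaged per gene, Cacna1d gave -0.24 in R6/2 against WT, and Atp2b3 gave 0.0285 and Cacna1h 0.19 in Dble::R6/2 against Hdac4HET, where other probe sets of these genes moved the other way. Of 31 called results, 15 lost no call under any alternative.

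Members called in R6/2 against WT numbered 17 with probe sets averaged (3 higher and 14 lower), against 10. With probe sets averaged, 5792 of 18193 genes were called (3261 higher and 2531 lower). In Dble::R6/2 against Hdac4HET they numbered 9 without the arrays against their labelled sex, against 18, in fewer arrays. In Hdac4HET against WT they numbered 1 with sex read from Xist, 1 by the methods' t-test, 1 with probe sets averaged, 2 in the single fit of 4 genotypes, 0 without the arrays high in prolactin and 0 without the arrays against their labelled sex, against 3. Calls over all probe sets (genes where averaged) were 22, 173, 437, 704, 5 and 26 in that order, against 1760, and the cause was not tested. Leaving out each array gave 9 to 14 members in R6/2 against WT, 15 to 19 in Dble::R6/2 against Hdac4HET, 1 to 4 in Hdac4HET against WT and 0 in Dble::R6/2 against R6/2. Over all probe sets, calls then ran from 10767 to 12721, 9435 to 10991, 183 to 3994 and 3 to 4 in that order. With brighter probe sets only, Ryr1 and Cacng6 were not tested.

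Samples were fitted as unpaired. Deviations of same-numbered arrays from their group means correlated at -0.35 to 0.45. Their medians were 0.07, 0.002, -0.03 and 0.25 in R6/2 against WT, Dble::R6/2 against Hdac4HET, Hdac4HET against WT and Dble::R6/2 against R6/2. Between other numbers the medians were 0.01, -0.0065, -0.01 and -0.003 in that order, and 0 of 8, 1 of 8, 2 of 8 and 3 of 9 arrays matched their own number best. Same-numbered arrays of Dble::R6/2 and R6/2 were thus more alike by the median than others, and a pairing was not tested. With the replicate block the counts of members were 10, 14, 3 and 0 for the comparisons in the order above, and 0 for the interaction. Over all probe sets they were 11352, 8535, 877 and 4, and 3 for the interaction.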

Other observations

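Other calcium genes were also compared in Hdac4HET against WT. Of 17 exchangers and mitochondrial uptake genes 1 was higher, and of 31 store and channel partners 2 were higher. Of 18 sensors and buffers 2 were lower, and of 20 TRP and other channels 1 was higher and 1 lower. Over all genes 1.46% were higher and 1.71% lower. Without the arrays high in prolactin 5 probe sets were called in all, against 1760. Whether the genes named here kept their calls was not tested. Among exchangers and mitochondrial uptake genes Slc8a3, a sodium-calcium exchanger, was higher (0.38), and among store and channel partners the store buffer Casq2 (0.59) and the AMPA receptor partner Cnih3 (0.30) were. Among sensors and buffers Hpca (-0.32) and the calbindin gene Calb1 (-0.27) were lower, and among TRP and other channels Pkd1 was higher (0.37) and Trpm7 lower (-0.45). In Dble::R6/2 against R6/2, limma called 0 genes in each of the 4 lists.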
